A study of Mus musculus with 21 samples.

Results

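Myostatin, follistatin and activin signalling was followed through 10 genes in mouse hindlimb muscle. They were the ligand Mstn, the secreted follistatin family members Fst, Fstl1 and Fstl3, the receptors Acvr2a, Acvr2b and Acvr1b, and the intracellular proteins Smad2, Smad3 and Smad7. The genes were taken from the deposited table by symbol, 10 of its 46071 genes. Smad3 moved most. It was 3.04-fold higher in diabetic triple-knockout muscle than in diabetic floxed muscle, and 3.01-fold lower in diabetic floxed muscle than in floxed muscle without diabetes. Acvr2a was 1.76-fold lower in diabetic triple-knockout muscle than in diabetic floxed muscle, with an adjusted p that lay close to the threshold. Mstn and Fst passed the test in no comparison.

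Myostatin and the activins are secreted proteins of the TGF-beta family, and myostatin is made mainly by muscle and limits its growth. Dimers of these ligands bind the type II receptors ACVR2A and ACVR2B, which recruit and phosphorylate a type I receptor such as ACVR1B (ALK4), and the type I receptor then phosphorylates SMAD2 and SMAD3, which enter the nucleus with SMAD4. Follistatin and FSTL3 bind the ligands outside the cell, and SMAD7 blocks the receptor from within. The pathway is known in muscle for opposing the insulin and IGF1 route through Akt, the kinase that keeps FoxO transcription factors out of the nucleus.

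Muscle was powdered quadriceps and gastrocnemius combined, read as RNA-seq counts in 21 libraries. All mice carried floxed Foxo1, Foxo3 and Foxo4 on a mixed C57Blk6, C57Blk6J and 129 background. The triple knockouts (TKO) also carried Cre under the ACTA1 promoter, which is active in skeletal muscle fibres, so other cells of the tissue keep the 3 genes, and floxed littermates were the controls. Streptozotocin (STZ), which destroys pancreatic beta cells, was injected at 150 mg/kg to make mice diabetic, and females had a further 75 mg/kg on day 3. Mice given STZ entered the study if random blood glucose stayed above 300 mg/dL. The other mice are labelled as given no drug, and the study's design text names citrate buffer as the control injection. The groups held 6 TKO, 4 floxed, 6 STZ TKO and 5 STZ floxed libraries, named here by their title numbers. The labels give no age or sex, so the total STZ dose behind each STZ library is not known. They also do not say whether libraries stem from different animals. The p-values therefore reflect library-to-library spread, which may be technical.

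Total counts ranged from 2951290 to 7687823 per library, with a median of 5665819. Foxo1 and Foxo4 were lower in every knockout library than in every floxed library, with log2 changes of -2.22 ± 0.30 and -4.66 ± 0.23 without STZ and -1.84 ± 0.28 and -4.67 ± 0.22 under STZ (± SE; edgeR, all 4 adjusted p at most 0.000366). Foxo3 averaged 96.1 ± 16.6 CPM in TKO and 73.1 ± 11.3 CPM in floxed libraries, and 136 ± 60.7 CPM in STZ TKO and 90.3 ± 14.0 CPM in STZ floxed libraries (SD), with log2 changes of 0.40 ± 0.25 (adjusted p = 0.616) and 0.59 ± 0.23 (adjusted p = 0.148), so its whole-gene counts do not check its deletion. The 8 skeletal muscle fibre markers summed to 57200 to 203000 CPM (counts scaled to a common library size) in every library. The lowest sums were those of libraries 17 and 20, at 57200 and 75800 CPM. Macrophage markers, 14 of 14 measured and none at 0, summed to 325 to 1930 CPM in TKO and 188 to 257 CPM in floxed libraries, and to 308 to 2450 CPM in STZ TKO and 216 to 341 CPM in STZ floxed libraries. Fibroblast markers, 11 of 11 measured and none at 0, summed to 1700 to 8440 CPM in TKO and 1690 to 7330 CPM in floxed libraries, and to 350 to 4760 CPM in STZ TKO and 240 to 865 CPM in STZ floxed libraries. Libraries 4, 15, 16 and 20, all of knockouts, had the 4 highest macrophage sums (1850, 2450, 1120 and 1930 CPM). The macrophage level thus went largely with genotype. A fit that holds this level as a covariate cannot well separate it from the knockout, and a call lost there is hard to read.

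Levels of different genes were compared per kilobase of exon. Mstn had 26.9 ± 11.6 CPM per kilobase (SD over the 21 libraries), Smad3 24.8 ± 13.3, Acvr1b 24.1 ± 6.25 and Fstl1 23.3 ± 17.6, and these 4 lay within each other's spread. Acvr2a followed at 9.0 ± 4.61 CPM per kilobase, then Smad7 at 4.02 ± 1.87 and Fst at 3.29 ± 0.962, again closer to each other than their spread. Acvr2b at 1.93 ± 1.01 and Smad2 at 1.8 ± 0.384 CPM per kilobase did not differ beyond their spread either. Fstl3 came last at 0.387 ± 0.255 CPM per kilobase. This order is over all libraries: in STZ floxed libraries Acvr2a, at a mean of 15.0 CPM per kilobase, stood above Fstl1 at 10.6 and Smad3 at 9.89. Smad3 thus stood above Smad2, and Acvr2a stood above Acvr2b in the means of all 4 groups (5.35 and 1.3 CPM per kilobase in TKO, 7.69 and 2.31 in floxed, 8.52 and 1.6 in STZ TKO, and 15.0 and 2.77 in STZ floxed libraries).

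**Figure D1:**
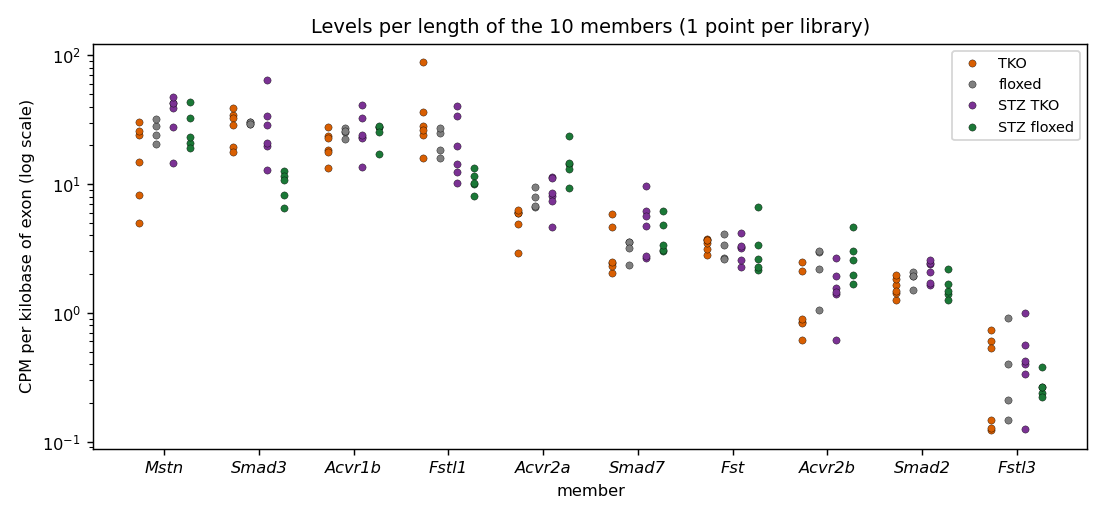
CPM per kilobase of exon (log scale) of the 10 members, ordered by their mean over all libraries, with 1 point per library and the 4 groups side by side in TKO, floxed, STZ TKO and STZ floxed order. Mstn, Smad3, Acvr1b and Fstl1 overlap at the top with means of 23.3 to 26.9 CPM per kilobase, and Fstl3 lies lowest at 0.387.

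Of the 10 members, 9 had enough counts to be tested. Fstl3 had 1 to 15 counts per library and was not. Without STZ, none of the 9 passed in TKO against floxed muscle at an adjusted p under 0.05 (edgeR's quasi-likelihood test, where 0.514% of all 12658 tested genes passed); 0 had an unadjusted p under 0.05, against 11.5% of all tested genes, and DESeq2 and limma-voom passed 0 as well. Under STZ, 2 of 9 passed in TKO against floxed muscle, where 4.89% of all tested genes did. Smad3 was the 1 that rose, as 2.47% of all tested genes did, and Acvr2a the 1 that fell, as 2.42% did. Between STZ floxed and floxed muscle, 1 of 9 passed, where 1.35% of all tested genes did. It was Smad3, which fell, as 0.853% of all tested genes did. Between STZ TKO and TKO muscle, 0 of 9 passed with edgeR, DESeq2 or limma-voom, where 0.142% of all tested genes passed with edgeR; 4 members had an unadjusted p under 0.05, as had 11.3% of all tested genes. For the interaction, the STZ effect in TKO minus that in floxed muscle, 0 of 9 passed with each of the 3 tools and 0.0079% of all tested genes passed with edgeR; 2 members, Smad3 and Smad2, had an unadjusted p under 0.05, as had 3.89% of all tested genes.

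The median log2 change of the 9 members was -0.21 in TKO against floxed, 0.35 in STZ TKO against STZ floxed, 0.09 in STZ floxed against floxed and 0.35 in STZ TKO against TKO muscle, beside 0.004, 0.035, 0.016 and 0.011 over all tested genes. Comparisons that have a group in common share its libraries, so their values are not independent of each other.

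**Figure D2:**
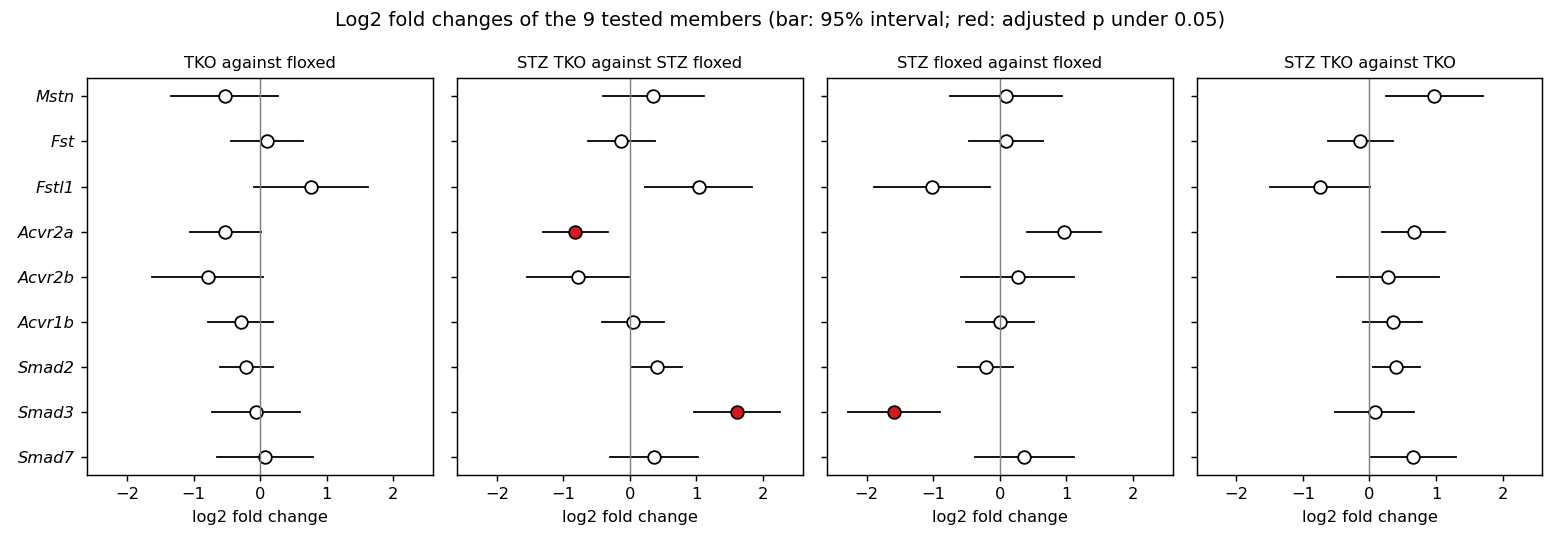
Log2 fold changes of the 9 tested members with 95% intervals in 4 comparisons, each panel giving the first-named group over the second. Filled red points have an adjusted p under 0.05: Smad3 at 1.60 and Acvr2a at -0.82 in STZ TKO against STZ floxed muscle, and Smad3 at -1.59 in STZ floxed against floxed muscle.

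Mstn (ENSMUSG00000026100, chromosome 1, 53061640 to 53068079, plus strand, GRCm38) encodes myostatin. It had a lowest, median and highest level of 13.4, 52.6 and 81.8 CPM in TKO libraries, against 55.4, 65.4, 75.6 and 86.4 CPM in floxed libraries. Under STZ it had 39.1, 110 and 128 CPM in TKO libraries, against 52.0, 56.5, 63.3, 87.4 and 118 CPM in floxed libraries. The groups overlapped in every comparison, and TKO libraries 20 and 6, at 13.4 and 22.1 CPM, were the lowest of all. The largest change was in STZ TKO against TKO muscle, with means of 96.2 ± 33.3 and 48.8 ± 27.8 CPM (SD, n = 6 each) and a log2 change of 0.98 ± 0.35 (SE; 95% interval 0.24 to 1.71, unadjusted p = 0.0113, adjusted p = 0.321 with edgeR). Its change in STZ floxed against floxed muscle was 0.09 ± 0.41 on the log2 scale (interval -0.75 to 0.93), in TKO against floxed -0.53 ± 0.39 (-1.34 to 0.27), and in STZ TKO against STZ floxed 0.35 ± 0.37 (-0.41 to 1.11). None of these 3 passed. The TKO against floxed value turned to 0.24 with the macrophage marker level as a covariate.

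The Mstn promoter is shown because FoxO factors, Smads and myogenic helix-loop-helix factors have all been described as regulators of this gene. The 250 bases before the RefSeq start site lie at chr1:53061390-53061639, plus strand, GRCm38.p6, with E-boxes (CANNTG, the motif of myogenic helix-loop-helix factors) in capitals.
Mstn: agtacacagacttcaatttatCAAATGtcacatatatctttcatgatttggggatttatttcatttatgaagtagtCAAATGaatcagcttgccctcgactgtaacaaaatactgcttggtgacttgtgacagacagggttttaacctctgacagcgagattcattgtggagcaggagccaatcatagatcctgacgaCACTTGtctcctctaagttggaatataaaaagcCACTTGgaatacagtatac
The 4 E-boxes start at positions -229, -174, -52 and -19 from the start site; 66.2% of 32851 mouse promoters of the same length hold at least 1. Searched on both strands, the window held no FoxO consensus GTAAACA (3.17% of promoters), no FoxO core TGTTT (46.4%; its reverse complement AAACA lies within the consensus) and no Smad element GTCTAGAC (0.167%). Of the 7 members whose windows were searched, 0 held the FoxO core and 3 held an E-box. These counts describe letters in the window and nothing about binding.

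Over all 21 libraries the genes with the pattern most like Mstn were Zfp91 (Pearson r = 0.942, Spearman rho = 0.803), Thap12 (0.893 and 0.756) and Rragd (0.886 and 0.684), among 9850 genes compared. The points share their group means and library depth, so the coefficients are descriptive.

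Fst (ENSMUSG00000021765, chromosome 13, 114452290 to 114458951, minus strand) encodes follistatin, the secreted protein that wraps around activins and myostatin and keeps them from their receptors. Its log2 CPM had an SD of 0.36 over the 21 libraries, against 0.84 for Fstl1. It had 12.9, 16.4 and 17.3 CPM (lowest, median and highest) in TKO libraries, against 12.1, 12.3, 15.3 and 18.8 CPM in floxed libraries. Under STZ it had 10.4, 14.7 and 19.1 CPM in TKO libraries, against 9.93, 10.4, 12.0, 15.5 and 30.4 CPM in floxed libraries. All groups overlapped. Log2 changes lay between -0.14 ± 0.23 (STZ TKO against TKO) and 0.10 ± 0.26 (TKO against floxed), with adjusted p of 0.84 to 0.947 in edgeR, and the 95% interval in TKO against floxed was -0.44 to 0.64. Bin3 (r = 0.783, rho = 0.716), Eri1 (0.759 and 0.634) and Trim27 (0.74 and 0.545) had the patterns most like it, over the same 21 libraries and 9850 genes.

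Fstl1 (ENSMUSG00000022816, chromosome 16, 37776873 to 37836514, plus strand) encodes a secreted glycoprotein with a follistatin-like domain that mesenchymal cells make in quantity. It had 77.9, 135 and 433 CPM (lowest, median and highest) in TKO libraries, against 78.0, 90.6, 121 and 135 CPM in floxed libraries. Under STZ it had 49.6, 84.1 and 198 CPM in TKO libraries, against 39.8, 49.2, 50.1, 56.9 and 65.5 CPM in floxed libraries. Every STZ floxed library lay below every floxed library, as was the case for 5.17% of all tested genes. The log2 change was -1.02 ± 0.42 in STZ floxed against floxed muscle (unadjusted p = 0.0237, adjusted p = 0.256, edgeR) and 1.03 ± 0.39 in STZ TKO against STZ floxed muscle (unadjusted p = 0.0141, adjusted p = 0.135), so neither passed. The adjusted p of the STZ floxed comparison was 0.0257 with only those groups in the fit, 0.00755 with macrophage markers as a covariate and 0.0283 without libraries 4, 15, 16 and 20, and that of the STZ TKO comparison was 0.0294 with the run of library codes as a block. No other alternative passed. The first comparison thus passed in 0 of 9 leave-one-out fits and 3 of 9 other settings. The second passed in 0 of 11 and 1 of 9, with adjusted p up to 0.894.

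Fibroblast markers were set beside Fstl1 in each comparison of 2 groups. In STZ floxed against floxed muscle 3 of the 11 fibroblast markers fell, 0 rose and their median log2 change was -0.98. Of all tested genes 0.853% fell there, with a median of 0.016. In STZ TKO against STZ floxed muscle 1 rose, 0 fell and the median was 0.77, where 2.47% of all tested genes rose with a median of 0.035 over all. In TKO against floxed muscle, where Fstl1 had a log2 change of 0.76 ± 0.41, 0 rose or fell and the median was 0.04. In STZ TKO against TKO muscle Fstl1 had -0.75 ± 0.36, and 0 fibroblast markers rose or fell. Their median there was -0.47, beside 0.011 over all tested genes. The 8 tendon markers had 2 that fell, beside the same 0.853% of all tested genes, 0 that rose and a median of -1.65 between STZ floxed and floxed muscle. Between STZ TKO and STZ floxed muscle 0 of them passed and their median was 0.76. The tendon median was -0.68 between STZ TKO and TKO muscle and -0.535 between TKO and floxed muscle, where 0 passed as well. The genes with the pattern most like Fstl1 were Col3a1 (r = 0.946, rho = 0.96), Col5a2 (0.942 and 0.921) and Fbn1 (0.927 and 0.901), which encode 2 fibrillar collagens and fibrillin-1. Library 20, with the highest Fstl1 level of 433 CPM, also had the highest summed fibroblast markers. With the macrophage level as a covariate the Fstl1 change in STZ TKO against STZ floxed muscle became -0.12. The part of fibroblast and tendon content in the Fstl1 values was not tested. In whole muscle, fewer cells of a type and less RNA per cell cannot be told apart.

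Fstl3 (ENSMUSG00000020325, chromosome 10, 79777272 to 79782630, plus strand), whose product binds activin and myostatin as follistatin does, averaged 0.926 ± 0.678 CPM in TKO (SD, n = 6), 1.02 ± 0.847 in floxed (n = 4), 1.15 ± 0.715 in STZ TKO (n = 6) and 0.67 ± 0.149 CPM in STZ floxed libraries (n = 5), from summed counts of 24, 20, 41 and 20 reads. The filter on low counts left it out of the tests, and no difference between these means is read here.

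Acvr2a (ENSMUSG00000052155, chromosome 2, 48814109 to 48903269, plus strand) encodes the type II receptor for activins and, with Acvr2b, for myostatin. Under STZ it had 26.5, 47.2 and 64.9 CPM (lowest, median and highest) in TKO libraries, against 52.5, 74.9, 81.9, 82.7 and 135 CPM in floxed libraries. The groups overlapped, with only library 3 of the floxed libraries inside the TKO range. Acvr2a fell, with a log2 change of -0.82 ± 0.24 (SE; 95% interval -1.31 to -0.33, adjusted p = 0.0478, edgeR). The adjusted p passed in 3 of 11 fits that left out 1 library, with the highest, 0.185, without library 21, and in 4 of 9 other settings. Macrophage markers went the other way in this comparison: 5 of 14 rose and 0 fell, with a median log2 change of 1.66. Of all tested genes 2.47% rose. With the macrophage level as a covariate the Acvr2a change was -0.48 (adjusted p = 0.467), and without libraries 4, 15, 16 and 20 it was -0.61 (adjusted p = 0.206). The macrophage level nearly separated these 2 groups, so that fit cannot well tell it from genotype. Its part in the Acvr2a value was not tested.

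Without STZ, Acvr2a had 16.6, 33.9 and 35.5 CPM in TKO libraries, against 37.6, 38.4, 45.3 and 53.7 CPM in floxed libraries. Every TKO library lay below every floxed library, as was the case for 2.61% of all tested genes, but the change of -0.52 ± 0.26 did not pass (adjusted p = 0.449). STZ floxed and floxed means were 85.3 ± 30.1 (n = 5) and 43.7 ± 7.46 CPM (n = 4), with a log2 change of 0.96 ± 0.27 (adjusted p = 0.0778; 0.0179 in DESeq2). STZ TKO and TKO means were 48.4 ± 14.2 and 30.4 ± 7.31 CPM (n = 6 each), with a change of 0.67 ± 0.23 (adjusted p = 0.306). The interaction was -0.30 ± 0.35, with a 95% interval of -1.03 to 0.43. Kat2b (r = 0.951, rho = 0.955), Mtdh (0.939 and 0.952) and Slc12a2 (0.923 and 0.955) followed its pattern most closely. An exon of Acvr2a overlaps an exon of Orc4 on the opposite strand, and the strand setting of the counting is not given in the sources used here. Orc4 had 27.7 ± 14.9 CPM in STZ TKO and 26.3 ± 12.2 CPM in STZ floxed libraries, a log2 change of 0.06 ± 0.33.

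Acvr2b (ENSMUSG00000061393, chromosome 9, 119402118 to 119434995, plus strand), the type II receptor that binds myostatin most tightly, was lower in mean level in knockouts in both states without passing the test. It averaged 5.09 ± 3.10 CPM in TKO (n = 6) and 9.07 ± 3.60 CPM in floxed libraries (n = 4), and 6.28 ± 2.63 CPM in STZ TKO (n = 6) and 10.9 ± 4.57 CPM in STZ floxed libraries (n = 5). The log2 changes were -0.79 ± 0.40 (adjusted p = 0.477) and -0.78 ± 0.37 (adjusted p = 0.258), with overlap in both. Acvr1b (ENSMUSG00000000532, chromosome 15, 101174067 to 101213684, plus strand), the type I receptor ALK4, averaged 90.8 ± 22.5 CPM in TKO and 111 ± 8.89 CPM in floxed libraries, and 115 ± 41.6 CPM in STZ TKO and 112 ± 20.7 CPM in STZ floxed libraries. Its 4 log2 changes lay between -0.29 ± 0.24 and 0.35 ± 0.21, and the interval in STZ TKO against STZ floxed muscle was -0.41 to 0.51.

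**Figure D3:**
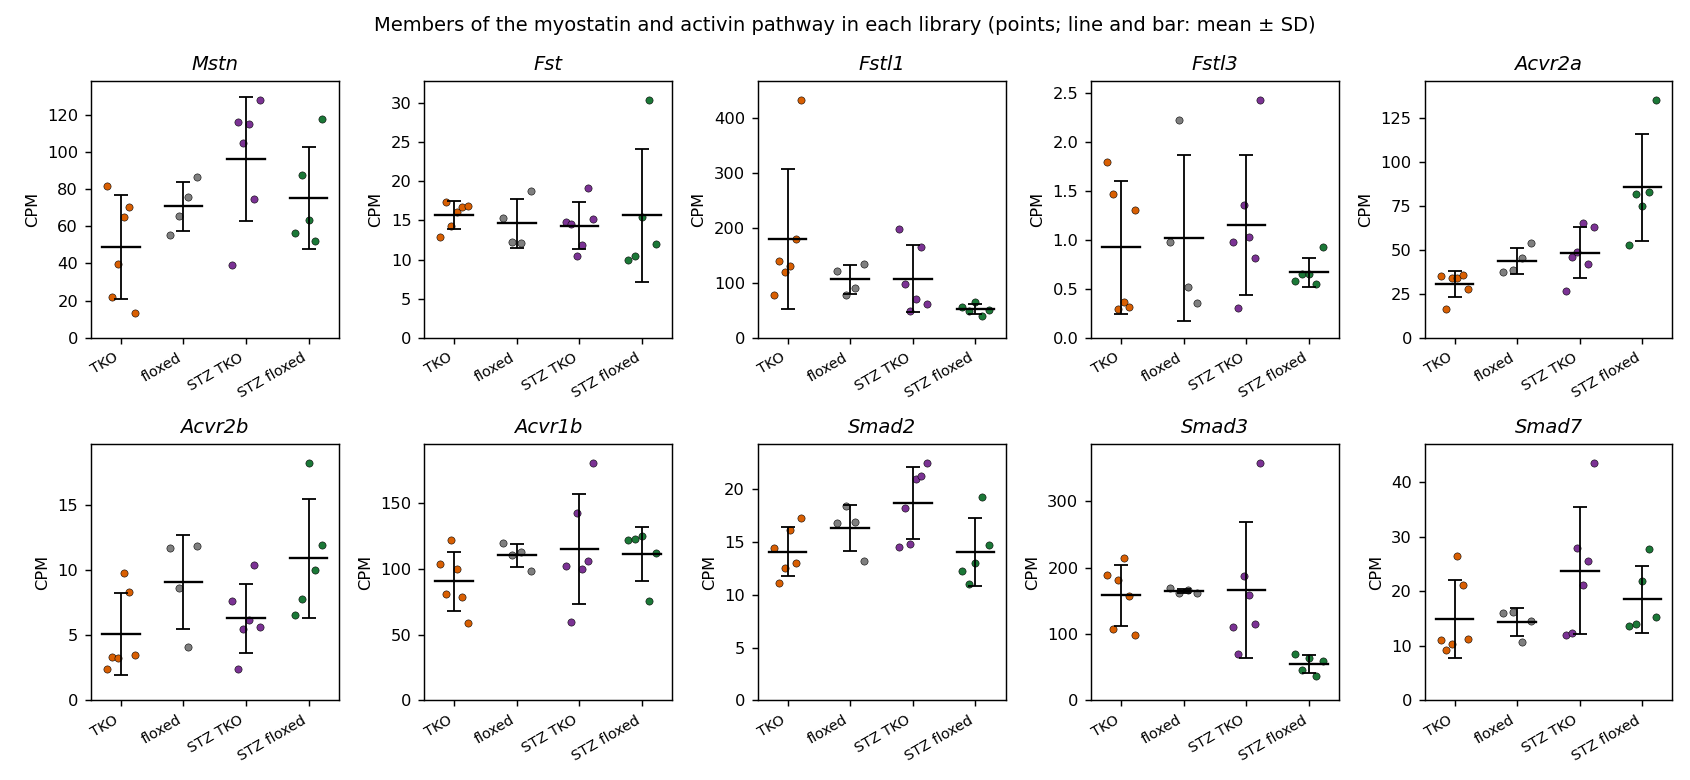
CPM of each of the 10 members in every library, as points, with the group mean (line) and SD (bar), in TKO, floxed, STZ TKO and STZ floxed order and with its own axis from 0 for each gene. Smad3 in STZ floxed libraries (36.2 to 70.1 CPM) lies below all libraries of the other 3 groups (70.7 to 358 CPM).

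Smad3 (ENSMUSG00000032402, chromosome 9, 63646767 to 63757994, minus strand) encodes the Smad that both myostatin and TGF-beta receptors activate and that binds DNA directly. Under STZ it had 110, 70.7, 188, 159, 115 and 358 CPM in TKO libraries 4, 8, 11, 12, 15 and 18, against 70.1, 45.3, 63.5, 36.2 and 59.1 CPM in floxed libraries 3, 7, 14, 17 and 21. The groups did not overlap, though the lowest TKO and the highest floxed library nearly met, and 1.51% of all tested genes lay apart in this direction. Smad3 rose, with means of 167 ± 102 and 54.8 ± 13.8 CPM (SD) and a log2 change of 1.60 ± 0.31 (SE; 95% interval 0.96 to 2.25, adjusted p = 0.00365, edgeR). It passed in all 11 fits that left out 1 library and in all 9 other settings. The lowest leave-one-out value was 1.23, without library 18, and the lowest other value 1.11 (adjusted p = 0.0148), without libraries 17 and 18. With the macrophage level as a covariate the change was 2.04 (adjusted p = 0.00165).

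Library codes in the titles fall into 6 runs of adjacent codes (the third skips 1 code), which the labels do not call batches, and 4 of them hold libraries of both diabetic groups. Within these runs Smad3 was higher in STZ TKO than in STZ floxed libraries each time, by 0.65, 0.64, 0.86 and 3.29 on the log2 scale. Acvr2a was lower each time, with log2 differences of -0.98, -0.83, -0.83 and -0.39. With the run as a block the Smad3 change was 1.38 (adjusted p = 0.0134) and that of Acvr2a -0.82 (adjusted p = 0.0286).

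**Figure D4:**
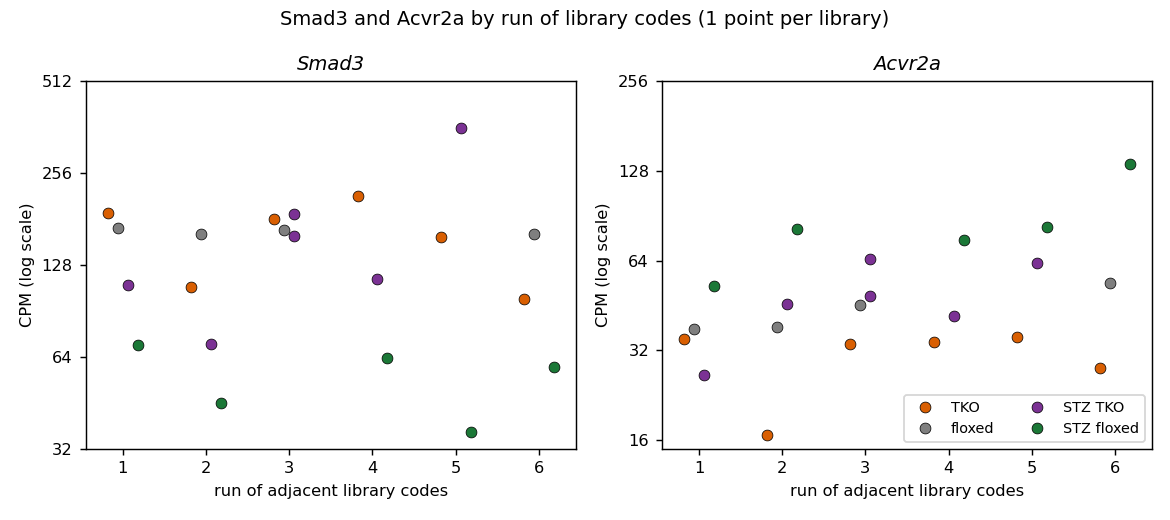
CPM (log scale) of Smad3 and Acvr2a in each library by run of adjacent library codes, with groups in TKO, floxed, STZ TKO and STZ floxed order within a run. In each of runs 1, 2, 4 and 5 the STZ TKO point is above the STZ floxed point for Smad3 and below it for Acvr2a; the largest gap is that of Smad3 in run 5, 358 and 36.2 CPM.

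Smad3 fell in STZ floxed against floxed muscle, to the 36.2 to 70.1 CPM given above, against 162, 162, 167 and 169 CPM in floxed libraries. The groups did not overlap, as 5.17% of all tested genes did not in this direction, and the floxed libraries were nearly equal (165 ± 3.36 CPM, SD, n = 4). The log2 change was -1.59 ± 0.34 (95% interval -2.28 to -0.90, adjusted p = 0.0204, edgeR). Its size stayed between -1.70 and -1.45 in the fits that left out 1 library, while the adjusted p was 0.0707, 0.0556, 0.0589 and 0.0515 without libraries 1, 7, 17 and 19, so the call passed in 5 of 9 such fits. It passed in all 9 other settings. In the 3 runs that hold both groups the differences were -1.26, -1.83 and -1.45. Fibroblast and tendon markers also fell in part in this comparison, as given for Fstl1, and their part in the Smad3 value was not tested.

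In TKO against floxed muscle Smad3 averaged 158 ± 46.4 CPM (n = 6) and 165 ± 3.36 CPM (n = 4), a log2 change of -0.06 ± 0.32 (95% interval -0.72 to 0.60). It averaged, in STZ TKO and TKO libraries, 167 ± 102 and 158 ± 46.4 CPM, a change of 0.08 ± 0.29 (-0.51 to 0.67). The interaction was 1.67 ± 0.44 (95% interval 0.76 to 2.58, unadjusted p = 0.00096), which did not pass over all genes (adjusted p = 0.925; 0.214 to 1.0 over the alternatives), so a different STZ effect in the 2 genotypes was not established for Smad3. Ptpn3 (r = 0.876, rho = 0.865), Gpc1 (0.875 and 0.839) and Trp53inp2 (0.867 and 0.74) had the patterns most like it. Across the 21 libraries Smad3 and Acvr2a had a Pearson r of -0.424 and a Spearman rho of -0.405.

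The windows before the RefSeq start sites of Smad3 and Acvr2a are shown as those of the 2 members that passed the test. They lie at chr9:63757995-63758244, minus strand, and chr2:48813859-48814108, plus strand, on GRCm38.p6. No letter is in capitals, since none of the motifs searched in the Mstn window was found.
Smad3: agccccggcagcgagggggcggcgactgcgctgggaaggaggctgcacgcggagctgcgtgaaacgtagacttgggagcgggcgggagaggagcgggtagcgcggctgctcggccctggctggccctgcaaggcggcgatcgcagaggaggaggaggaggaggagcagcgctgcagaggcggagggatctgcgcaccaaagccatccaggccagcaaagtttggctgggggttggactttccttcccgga
Acvr2a: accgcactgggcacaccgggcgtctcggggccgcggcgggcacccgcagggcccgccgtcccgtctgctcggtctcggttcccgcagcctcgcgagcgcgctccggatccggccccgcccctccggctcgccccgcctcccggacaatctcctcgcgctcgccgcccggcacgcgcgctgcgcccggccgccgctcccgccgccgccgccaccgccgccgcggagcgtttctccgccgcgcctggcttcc
G and C made up 69.2% of the Smad3 window and 82.0% of the Acvr2a window, beside 38.4% of the Mstn window and a median of 52.4% over all promoters.

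Smad2 (ENSMUSG00000024563, chromosome 18, 76241580 to 76310963, plus strand), the partner of Smad3 below the same receptors, averaged 14.1 ± 2.33 CPM in TKO and 16.3 ± 2.18 CPM in floxed libraries, and 18.7 ± 3.45 CPM in STZ TKO and 14.0 ± 3.21 CPM in STZ floxed libraries. Its log2 change was 0.41 ± 0.18 in STZ TKO against STZ floxed muscle (unadjusted p = 0.032, adjusted p = 0.213), and the interaction was 0.62 ± 0.26 (unadjusted p = 0.0277, adjusted p = 1.0). Smad7 (ENSMUSG00000025880, chromosome 18, 75367529 to 75395935, plus strand), the inhibitory Smad that the pathway itself induces, averaged 14.9 ± 7.14 CPM in TKO and 14.3 ± 2.55 CPM in floxed libraries, and 23.8 ± 11.7 CPM in STZ TKO and 18.5 ± 6.20 CPM in STZ floxed libraries. Its largest log2 change was 0.66 ± 0.31 in STZ TKO against TKO muscle (unadjusted p = 0.0436, adjusted p = 0.426).

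The rest of the pathway was described through 66 further genes in 6 lists, of which 53 had enough counts to be tested. Wfikkn2 and Zfyve9 were lower in knockouts with and without STZ. In TKO against floxed muscle these 2 fell and 0 of 53 rose, and in STZ TKO against STZ floxed muscle 3 fell and 3 rose (0.363% of all tested genes fell in the first, and 2.42% fell and 2.47% rose in the second). DESeq2 passed 4 that fell in the first, and 5 that fell and 4 that rose in the second. Limma-voom passed 0 in the first, and 3 that fell and 1 that rose in the second. The shares given are those of edgeR, and over all genes DESeq2 passed more in both comparisons, as given at the end. For the 2 STZ effects, in floxed and in TKO muscle, and for the interaction 0 of 53 passed with edgeR. Of all tested genes 1.35%, 0.142% and 0.0079% did. At an unadjusted p under 0.05 (edgeR) there were 14 in the second and 2 in the third, as there were 11.3% and 3.89% of all tested genes. Limma-voom passed 0 in all 3, and DESeq2 passed 1 in the first and 0 in the other 2.

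Wfikkn2, a secreted inhibitor with several protease inhibitor domains that binds myostatin and its propeptide, had 4.36, 6.77 and 9.89 CPM (lowest, median and highest) in TKO libraries, against 8.95, 15.5, 17.9 and 22.6 CPM in floxed libraries. Under STZ it had 3.64, 5.84 and 7.93 CPM in TKO libraries, against 10.2, 16.2, 17.2, 18.8 and 21.5 CPM in floxed libraries. The groups lay apart under STZ, as 2.24% of all tested genes did in this direction, and without STZ only floxed library 19 reached into the TKO range. Under STZ its log2 change was -1.48 ± 0.25 (adjusted p = 0.00107), a call that passed in all 11 leave-one-out fits and all 9 other settings. Without STZ the change was -1.24 ± 0.27 (adjusted p = 0.033), which passed in 3 of 10 leave-one-out fits and 5 of 9 other settings, with a highest adjusted p of 0.521 under the macrophage covariate. The macrophage level did not overlap between TKO and floxed libraries, so that fit cannot well separate it from genotype. Between STZ floxed and floxed muscle the Wfikkn2 change was 0.06 ± 0.27. Of the 7 other extracellular inhibitors tested, Wfikkn2 alone passed in either knockout comparison.

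Zfyve9 encodes SARA, the endosomal anchor that presents SMAD2 and SMAD3 to the receptor. It averaged 70.9 ± 16.0 CPM in TKO (n = 6) and 133 ± 40.6 CPM in floxed libraries (n = 4), and 85.4 ± 17.1 CPM in STZ TKO (n = 6) and 143 ± 14.9 CPM in STZ floxed libraries (n = 5). The groups lay apart in both pairs, as 2.61% and 2.24% of all tested genes did in this direction. The log2 changes were -0.90 ± 0.20 (adjusted p = 0.0394) and -0.75 ± 0.19 (adjusted p = 0.023). The first call passed in 3 of 10 leave-one-out fits and 3 of 9 other settings, and the second in 6 of 11 and 7 of 9; with the macrophage covariate the values were -0.61 (adjusted p = 0.651) and -0.48 (adjusted p = 0.33). Of the 14 other Smads and regulators tested, 1 fell and 0 rose in each of these comparisons, with medians of -0.14 and -0.17.

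The 4 other genes passed under STZ and not without it, and no interaction of theirs passed (adjusted p = 1.0 each). Ccn2, a matrix protein that TGF-beta induces, had 70.1, 81.0 and 103 CPM (lowest, median and highest) in STZ TKO libraries, against 27.8, 42.1, 42.3, 42.4 and 67.4 CPM in STZ floxed libraries. It rose by 0.90 ± 0.21 on the log2 scale (adjusted p = 0.0129, edgeR). The groups did not overlap, and 1.51% of all tested genes lay apart in this direction. The call on Ccn2 passed in all 11 leave-one-out fits but not with the macrophage covariate (0.62, adjusted p = 0.214) or without libraries 4, 15, 16 and 20 (0.78, adjusted p = 0.0781). Pmepa1, a TGF-beta-induced membrane protein that binds receptor-activated Smads, averaged 78.6 ± 39.7 CPM in STZ TKO and 38.9 ± 5.88 CPM in STZ floxed libraries and rose by 1.02 ± 0.26 (adjusted p = 0.0241, edgeR). The Pmepa1 call passed in 6 of 11 leave-one-out fits and 6 of 9 other settings. Ccn2 and Pmepa1 were the 2 of the 8 transcriptional targets that passed under STZ, and 0 fell. The list's median was 0.619 under STZ, with 6 of 8 positive. In TKO against floxed muscle it was 0.62, also with 6 of 8 positive, and 0 passed. Over all tested genes the medians were 0.035 and 0.004. In the interaction Ccn2 had 0.81 ± 0.30 and Nedd4l, a ubiquitin ligase of activated Smads, -0.78 ± 0.29, both with an adjusted p of 1.0.

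Furin, the protease that cuts TGF-beta family precursors, averaged 48.1 ± 13.6 CPM in STZ TKO and 78.7 ± 12.4 CPM in STZ floxed libraries. The groups lay apart, as 2.24% of all tested genes did in this direction. Furin had a log2 change of -0.71 ± 0.19 (adjusted p = 0.0263, edgeR, past in 8 of 11 leave-one-out fits and 7 of 9 other settings). It was the 1 of 5 tested proteases to pass. Inha, the inhibin alpha chain, which in place of an activin chain makes an activin antagonist, averaged 4.68 ± 2.06 CPM in STZ TKO and 1.72 ± 0.85 CPM in STZ floxed libraries and rose by 1.46 ± 0.42 (adjusted p = 0.0459). Its call rested on 3 to 52 counts per library and passed in 2 of 11 leave-one-out fits and 6 of 9 other settings. Inha was the 1 of 10 tested other ligands to pass. None of the 9 tested other receptors and co-receptors passed in any comparison with edgeR, and all 9 had positive log2 changes in STZ TKO against TKO muscle, with a median of 0.40. In STZ floxed against floxed muscle 8 of the 9 were positive, with a median of 0.345. Over all tested genes the medians of these comparisons were 0.011 and 0.016. In TKO against floxed muscle 3 of the 9 were positive (median -0.195), and in STZ TKO against STZ floxed muscle 4 of the 9 (median -0.165).

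**Figure D5:**
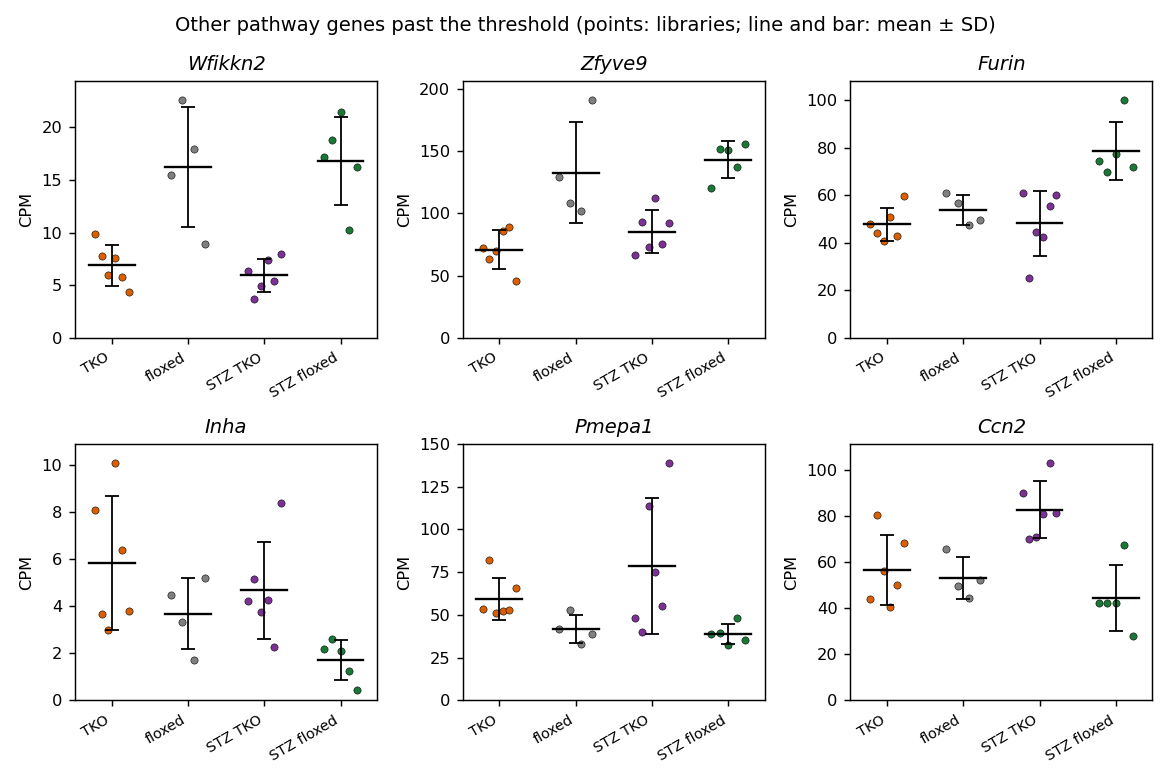
CPM of the 6 other pathway genes that passed the test in at least 1 comparison, in every library as points with the group mean (line) and SD (bar), in TKO, floxed, STZ TKO and STZ floxed order. Wfikkn2 averages 6.89 and 5.92 CPM in TKO and STZ TKO libraries and 16.2 and 16.8 CPM in floxed and STZ floxed libraries.

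Where no pathway gene passed, those with the smallest p were examined. For STZ floxed against floxed muscle, Bmp1, a protease that frees myostatin from its propeptide, averaged 23.8 ± 6.16 CPM in STZ floxed and 40.3 ± 5.93 CPM in floxed libraries, a change of -0.76 ± 0.29 (adjusted p = 0.21). Between STZ TKO and TKO muscle, the BMP receptor Bmpr1b averaged 6.17 ± 2.80 and 2.99 ± 1.01 CPM, a change of 1.03 ± 0.29 (adjusted p = 0.178), and the TGF-beta receptor Tgfbr1 averaged 120 ± 58.0 and 68.1 ± 18.5 CPM, a change of 0.82 ± 0.27 (adjusted p = 0.28).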

How the data were processed

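Directional RNA-seq libraries had been prepared from Trizol RNA of the pooled muscle powder, per the labels. The authors deposited raw read counts per Ensembl gene; the submitters' processing notes name STAR, featureCounts and the build GRCm38.p4. Tool versions, annotation, strand setting and multi-mapping reads: not given in the sources used here. Identifiers were matched to GENCODE M21 symbols on GRCm38 (45229 of 46071; the rest held 0.0478% of counts), and promoters came from RefSeq tables.

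Counts were filtered by filterByExpr with the 4 groups (12658 genes kept), scaled by TMM (factors 0.862 to 1.35) and fitted with edgeR 4.0.16 in R 4.3.3: robust quasi-likelihood, 4 group means over all 21 libraries, biological coefficient of variation 0.325. Tests were two-sided with Benjamini-Hochberg adjustment over all tested genes at 0.05. The SE is the log2 change divided by the root of F. CPM are TMM-scaled counts, with SD over libraries; CPM per kilobase uses the union of exons. Patterns were compared on log2 CPM (prior count 2) over genes with a mean of at least 2, predicted gene models left out.

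Alternatives were RLE size factors, DESeq2 1.42.0, limma-voom (limma 3.58.1), no filter, only the groups compared, the run of library codes as a block, the mean macrophage marker level as a covariate, and leaving out libraries. No pair among 46 of the same group matched within sampling noise (lowest chi-square per degree of freedom 8.61). After subtraction of group means, libraries of the same run but different groups had a mean correlation of 0.159 (26 pairs), against -0.0296 across runs (138 pairs).

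Named were all members; of the pathway lists, the genes past the threshold in a comparison or else the 2 with the smallest p (1 of these is not reported here); and the 3 genes most like Mstn, Fst and members that passed. Fstl1 falls outside this last part, and its 3 were named after its values were seen. The members and lists were chosen with earlier results of these data known.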

Additional observations from a re-analysis of the deposited data

Results flagged for a closer look

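Of 36 groups of member values, 3 held 1 library far from the others; chance alone marks about 1 in 20 groups. Fst had 30.4 CPM in STZ floxed library 17, where the other 4 libraries of the group had 9.93 to 15.5 CPM. Acvr1b had 75.6 CPM in the same library, where the others had 112 to 125 CPM. Fstl1 had 433 CPM in TKO library 20, where the others had 77.9 to 180 CPM. Libraries 17 and 20 also had the lowest sums of muscle fibre markers. In library 20 the 10 markers of the response to denervation summed to 2020 CPM, where the median of the TKO libraries was 183 CPM. The part of these differences in the member values was not tested. Without library 17, the Fst change was 0.24 in STZ TKO against STZ floxed muscle and -0.27 in STZ floxed against floxed muscle, and without library 20 the Fstl1 change in TKO against floxed muscle was 0.30.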

How the results depend on the processing

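Smad3 and Wfikkn2 in STZ TKO against STZ floxed muscle kept their direction and call in the 11 leave-one-out fits and 9 other settings run. Every other call on a member or pathway gene was lost in at least 1 fit, with its direction kept. With 4 to 6 libraries of 2951290 to 7687823 counts a group, Fstl3 fell below the filter on low counts. No paired analysis was possible because the title numbers are unique to each library, so no replicate number is shared between groups; the runs of library codes were used as a block in their place.

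Members past the threshold in STZ TKO against STZ floxed muscle numbered 2, and 3 with the run as a block (Smad3, Acvr2a and Fstl1), but 1 with limma-voom, with no filter, with only the groups compared, without libraries 4, 15, 16 and 20 and in the fit with macrophage level (1 to 2 when 1 library was left out). In STZ floxed against floxed muscle they numbered 1, but 2 with DESeq2, with only the groups compared and without libraries 4, 15, 16 and 20, and 3 in the fit with macrophage level (0 to 2 when 1 library was left out).

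Genes past the threshold in TKO against floxed muscle numbered 65, but 351 with DESeq2, 18 with the macrophage covariate, 125 without libraries 17 and 18 and 40 without libraries 4, 15, 16 and 20 (32 to 105 leaving out 1 library). In STZ TKO against STZ floxed muscle they numbered 619, but 1011 with DESeq2, 253 with the macrophage covariate, 312 with only the groups compared and 1068 with the run as a block (380 to 676). In STZ floxed against floxed muscle they numbered 171, but 425 with DESeq2, 294 with the macrophage covariate and 265 with only the groups compared (31 without library 1 to 333 without library 3). In STZ TKO against TKO muscle they numbered 18, but 111 with DESeq2, 32 with the macrophage covariate, 29 with no filter, 4 with only the groups compared, 28 without libraries 17 and 18 and 98 in the fit blocked by run (7 to 61). The interaction had 1, but 4 with DESeq2, 2 with no filter, and 0 with limma-voom, without libraries 4, 15, 16 and 20 and in the fit blocked by run (0 to 2). Members past numbered 0 in TKO against floxed, STZ TKO against TKO and the interaction under each alternative.

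Values that turned sign were never past the threshold in the main fit, and the cause was not tested. The macrophage level went largely with genotype, which limits the reading of knockout changes in fits with that covariate. With the macrophage covariate, TKO against floxed values became 0.2448 for Mstn, -0.1666 for Fst, -0.5441 for Fstl1, 0.0212 for Acvr1b and 0.4284 for Smad3, Fstl1 in STZ TKO against STZ floxed became -0.1195 and the Foxo4 interaction 0.0442. With the run as a block, TKO against floxed values were -0.0641 for Fst and -0.3681 for Smad7, STZ TKO against STZ floxed values 0.0728 for Fst and -0.1045 for Acvr1b, STZ floxed against floxed values -0.2138 for Fst, -0.1657 for Acvr2b and -0.0607 for Smad7, Smad3 in STZ TKO against TKO -0.0565, and the interactions of Fst 0.1369 and Foxo4 0.0424. Without libraries 17 and 18, Fst had 0.2347 and Acvr1b -0.2388 in STZ TKO against STZ floxed, Fst -0.2761 in STZ floxed against floxed, Smad3 -0.3012 and Foxo1 -0.1208 in STZ TKO against TKO, and the interactions were 0.1182 for Fst and -0.0074 for Acvr2b. Without libraries 4, 15, 16 and 20, Smad3 had 0.0959 in TKO against floxed and Acvr2b -0.2655 in the interaction. With limma-voom, Acvr1b had -0.0098 in STZ TKO against STZ floxed and -0.0127 in STZ floxed against floxed, Fst -0.0117 in STZ floxed against floxed and Smad3 -0.0684 in STZ TKO against TKO. The Acvr2b interaction was -0.0038 with DESeq2, -0.0122 with RLE size factors and -0.0017 with no filter, which also gave Acvr1b -0.0004 in STZ floxed against floxed.

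Leaving out 1 library at a time, the values that turned sign ranged as follows. Between TKO and floxed muscle Smad3 ranged from -0.1703 to 0.0558 and Smad7 from -0.1633 to 0.1906. Between STZ TKO and STZ floxed muscle Acvr1b ranged from -0.124 to 0.1804 and Fst from -0.2509 to 0.2439. Between STZ floxed and floxed muscle Mstn ranged from -0.1251 to 0.2202, Acvr1b from -0.0435 to 0.1409, Acvr2b from -0.0004 to 0.4233, Fst from -0.2664 to 0.2425 and Foxo1 from -0.454 to 0.0674. Between STZ TKO and TKO muscle Smad3 ranged from -0.2949 to 0.2345 and Foxo1 from -0.1151 to 0.178. In the interaction Acvr2b ranged from -0.1907 to 0.2938, Fst from -0.3769 to 0.124, Foxo3 from -0.021 to 0.3232 and Foxo4 from -0.2359 to 0.0946.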
